A study of Amphimedon queenslandica with 43 samples.

Results

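Of the 47411 transcript models in the deposited count table of the sponge Amphimedon queenslandica, 132 made up the set described here. By group medians and the cuts below, they were higher at the later larval age under natural day-night light only, not under constant light or constant dark. They were chosen on these same counts. For each light regime the age change was taken as log2((median CPM at 9 hours post emergence + 1)/(median CPM at 1 hour post emergence + 1)), where CPM is a count divided by its larva's total count and multiplied by 1000000 and hours post emergence (hpe) count from when a larva leaves its parent. A member had an identifier of the Aqu2.1 series, an age change of at least 0.8 under day-night light and of less than 0.4 in both constant regimes, a highest group median of at least 20 CPM, a count above 0 in all 22 larvae at 9 hpe and a mean count below 2500. There were 44016 Aqu2.1 models, 7185 of them met the cuts on level and detection, and the members were 1.84% of those.

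Each sample was a whole single larva, and 43 larvae were sequenced. Larvae taken in a window of 30 minutes from 11 am were put by 0.5 hpe into filtered sea water under constant light from a full-spectrum tube, under the regime named constant dark, or under natural day-night light. The constant dark regime was a neutral density filter that let through 6.6% of the daylight, so some daylight reached those larvae. At 9 hpe there were 7 constant-light, 7 constant-dark and 8 day-night larvae, and at 1 hpe 7 of each. The labels name the larvae at 9 hpe competent and those at 1 hpe precompetent. Emergence was timed alike for every larva, so age and time of day cannot be told apart in any regime.

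The larva of a sponge swims by cilia, without a nervous system, and must become competent before it can settle and turn into a juvenile. Sponge larvae respond to light although sponge genomes lack animal opsins, and cryptochromes, flavoproteins that absorb blue light, have been proposed as photoreceptors in the pigmented ring at the posterior end of this larva. The files do not pair the model identifiers with gene names and no identifier matched the reference gene table, so no function is given for any member.

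The larvae had 1890954 to 3927366 counts in total, with the highest group median, 3280489, in constant-light larvae and the lowest, 2356799, in constant-dark larvae, both at 9 hpe. Of the 43 larvae, 8 stood apart at the negative end of the second principal component, beyond its widest gap: 4 of the 7 constant-light larvae at 9 hpe, 1 constant-light larva at 1 hpe and 3 constant-dark larvae at 1 hpe. No day-night larva was among them. The positive end had no gap as wide, and although larvae of constant light and day-night light lay about as far out there, with values up to 42.7 against -56.9 at the negative end, they were kept. For calls at 9 hpe and calls with age, and for membership by the rule, results are given with and without the 8 larvae at the negative end. Counts at 1 hpe, counts called in both constant regimes together, the split of the gap between ages and counts without overlap use all 43 larvae. Whether the members called at 1 hpe were still called without the 8 larvae is given where those members are named. Tissue markers could not be looked up without gene names, and in whole larvae fewer cells of a type and less RNA per cell cannot be told apart.

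Within the set, the day-night age change ran from 0.80 to 3.31 with a median of 1.01. It was at least 1 in 69 members and at least 2 in 13. In constant-light larvae the age change of the same models ran from -2.17 to 0.40 with a median of 0.08, and in constant-dark larvae from -3.52 to 0.40 with a median of 0.05. Most members were thus nearly level with age in the constant regimes, with values between -0.4 and 0.4 in 112 members under constant light and in 106 under constant dark. An age change of -0.8 or less was present in 11 members under constant light and in 10 under constant dark, with 3 members in common. Over all 7185 models that met the level and detection cuts the median age change was 0.13 under constant light, 0.26 under constant dark and 0.21 under day-night light. These values chose the members and are given as a description.

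**Figure D1:**
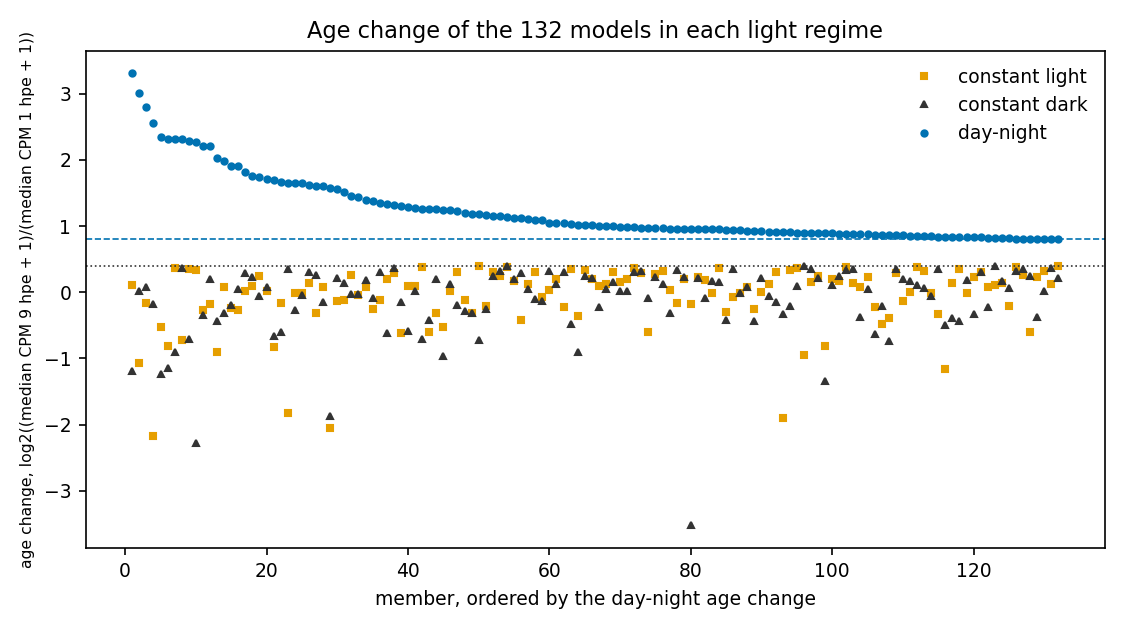
Age change of each of the 132 members under constant light (squares), constant dark (triangles) and day-night light (circles), on a log2 scale, with members ordered by the day-night value. The dashed line marks the cut at 0.8 and the dotted line the cut at 0.4. The day-night points run from 0.80 to 3.31, and the constant-regime points lie below 0.4 by the selection, most of them between -0.4 and 0.4.

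The cuts ran through a continuous range of values. The member nearest to the day-night cut, Aqu2.1.27086_001, had an age change of 0.802, and the nearest model outside, Aqu2.1.30075_001, had 0.798. For the constant-dark cut the nearest values were 0.398 for Aqu2.1.05049_001 inside and 0.404 for Aqu2.1.22700_001 outside. For the constant-light cut they were 0.398 for Aqu2.1.27086_001 inside and 0.416 for Aqu2.1.20602_001 outside. The highest group median was 20.4 CPM in Aqu2.1.19537_001 inside and 19.7 CPM in Aqu2.1.07555_001 outside, and 109 further Aqu2.1 models failed that level cut alone. The detection cut alone left out 29 models. At that cut the lowest count at 9 hpe was 1 in Aqu2.1.09134_001 inside and 0 in Aqu2.1.00847_001 outside. The cut on the mean count left out 1 model alone, with 1813 counts in the highest member, Aqu2.1.31785_001, and 2835 in Aqu2.1.27261_001 outside.

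A total of 1079 models that met the level and detection cuts had a day-night age change of at least 0.8. Of these, 475 had an age change of at least 0.4 in both constant regimes as well, 360 were below 0.4 under constant light only, 112 were below 0.4 under constant dark only, and 132 were below it in both. The same cuts turned round gave 112 models with constant light and 208 with constant dark as the only rising regime.

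The members were mostly of moderate abundance. Mean counts per larva were below 100 in 54 members, 100 to 500 in 61 and 500 or more in 17, with a median of 135 and a highest single count of 3802. The median member stood at 36.5 CPM under constant light, 37.3 CPM under constant dark and 63.9 CPM under day-night light at 9 hpe, and at 39, 39.8 and 24.8 CPM in constant-light, constant-dark and day-night larvae at 1 hpe. Both ages therefore contributed to the contrast between regimes, with day-night larvae above the others at 9 hpe and below them at 1 hpe.

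How much each age contributed differed from member to member. The gap between the age change in a constant regime and that under day-night light was split into the difference between regimes at 9 hpe and that at 1 hpe, from group medians of log2(CPM + 1). The larger part lay at 9 hpe against both constant regimes in 59 members and at 1 hpe against both in 38, and it differed between the constant regimes in 35. The median share at 9 hpe was 62.8% for constant light and 59.3% for constant dark. The day-night median at 9 hpe was the highest of the 6 group medians in 107 members, the day-night median at 1 hpe was the lowest in 85, and both held in 63. The median difference of constant light minus day-night was -0.60 at 9 hpe and 0.41 at 1 hpe, and that of constant dark minus day-night was -0.68 at 9 hpe and 0.41 at 1 hpe. The rule asks for a gap of this sign, so these differences describe where it lay and support nothing.

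**Figure D2:**
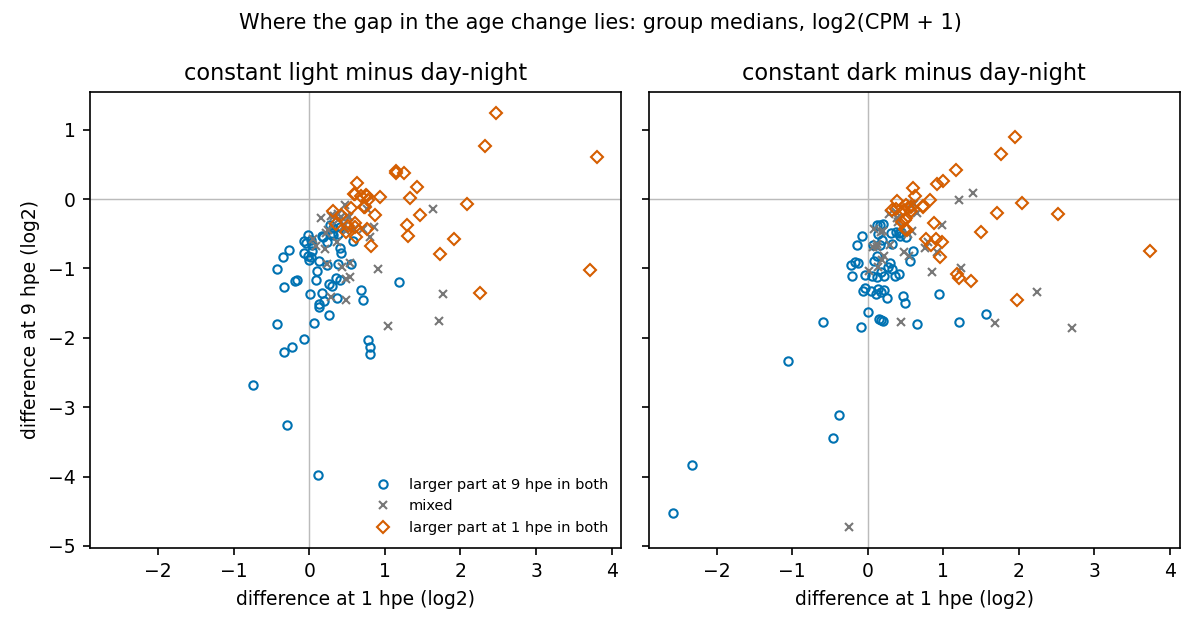
Difference of group medians of log2(CPM + 1), constant light minus day-night (left) and constant dark minus day-night (right), at 9 hpe (vertical) against 1 hpe (horizontal), with a point for each of the 132 members. Circles are the 59 members with the larger part of the gap at 9 hpe in both regimes, diamonds the 38 with the larger part at 1 hpe in both, and crosses the 35 that differed between regimes. The diamonds spread to the right, with values at 9 hpe on both sides of 0, and the circles all lie below 0 on the vertical axis.

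The quasi-likelihood test of edgeR was fitted to all larvae and to the 14188 models with enough counts, which included all 132 members, and a model was called at a Benjamini-Hochberg adjusted p below 0.05. In day-night larvae 60 members were called higher at 9 than at 1 hpe, where 9.94% of all tested models were called higher. The fitted log2 difference between these ages ran from -0.45 to 3.60 over the members, so the fit did not place every member higher at 9 hpe. In constant-dark larvae 7 members were called lower at 9 than at 1 hpe, against a background of 10.6%. In constant-light larvae 0 members were called with age, with 12 at an unadjusted p under 0.05 and a background of 6.11%. DESeq2 called 1. The difference of the age change from day-night larvae was called lower in 20 members for constant light, where the background was 1.04%, and in 22 for constant dark, where it was 0.782%. In 14 members both differences were called, where 0.423% of all tested models had both. Without the 8 larvae that stood apart, the differences were called in 7 members for constant light (background 0.399%) and in 17 for constant dark (0.676%). In that fit 60 members were called higher with age in day-night larvae (9.92%), 4 were called lower with age in constant-dark larvae (6.51%) and 1 was called with age in constant-light larvae (1.53%). The rule used all these contrasts, and nothing is read from the counts.

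At 9 hpe, 28 members were called lower in constant-light than in day-night larvae and 28 lower in constant-dark than in day-night larvae. The backgrounds were 1.97% of all tested models for constant light and 1.40% for constant dark. Without the 8 larvae that stood apart the counts were 19 for constant light, with a background of 0.824%, and 28 for constant dark, with a background of 1.26%. No member was called higher in either regime by edgeR or DESeq2, and the share of all tested models called higher is not given here. In 21 members both regimes were called lower, as in 0.881% of all tested models. A further 7 were called in constant light only and 7 in constant dark only. All 21 lay among the 59 members with the larger part of the gap at 9 hpe. At 1 hpe, 2 members were called higher in constant-light than in day-night larvae, against a background of 0.874% in either direction. In constant-dark against day-night larvae at 1 hpe 0 members were called by edgeR and 0 by DESeq2, with 18 at an unadjusted p under 0.05 and a background of 0.0141%. The group medians behind these contrasts entered the rule, so these counts are a description too.

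The 2 members called at 1 hpe were Aqu2.1.11000_001 and Aqu2.1.34937_001, named here after their values were seen. Aqu2.1.34937_001 ranged from 43.7 to 71.7 CPM around a median of 57.1 in constant-light larvae at 1 hpe, against 30.3 to 47.7 CPM around 37.3 in day-night larvae. At 9 hpe it had medians of 71.8 CPM under constant light and 67.9 CPM under day-night light, so its gap lay at 1 hpe. Aqu2.1.11000_001 ranged from 7.16 to 116 CPM in constant-light larvae at 1 hpe, with a median of 36.1 CPM. In day-night larvae of that age it ranged from 6.19 to 16.2 CPM, with a median of 10.2 CPM. The groups overlapped in both members. With 1 larva left out 0 to 2 were called, and with limma voom 0. Aqu2.1.11000_001 was not called without constant-light larva 3, 4, 5 or 6, constant-dark larva 1, 2, 4 or 5 or any day-night larva at 1 hpe, or constant-dark larva 2 or 3 or day-night larva 2 or 4 at 9 hpe. Aqu2.1.34937_001 was not called without constant-light larva 2 to 7, constant-dark larva 1, 3, 4, 5 or 6 or day-night larva 1, 4, 5 or 7 at 1 hpe, or constant-dark larva 2, 3 or 6 or day-night larva 2, 3, 6 or 7 at 9 hpe. Without the 8 larvae that stood apart Aqu2.1.34937_001 was not called, and Aqu2.1.11000_001 still was.

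In 8 members every day-night larva at 9 hpe lay above every constant-light and constant-dark larva of that age, where 0.402% of tested models did so. In 28 members every day-night larva at 9 hpe lay above every day-night larva at 1 hpe, with a background of 4.04%. In 6 members the 8 day-night larvae at 9 hpe lay above all 35 other larvae, as they did in 0.374% of tested models. These 6 are described here and below, and Aqu2.1.00985_001, Aqu2.1.35753_001 and Aqu2.1.36569_001 were chosen after their values were seen. The rule used the medians of the groups compared, so the counts without overlap are a description and support nothing. The sets with constant light or constant dark as the rising regime were chosen in the same way and held 112 and 208 models. In 1 and 0 of these, all larvae of that regime at 9 hpe lay above all larvae of the other regimes. Groups there were of 7 rather than 8 larvae, the share of all tested models was not computed, and no test was made.

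**Figure D3:**
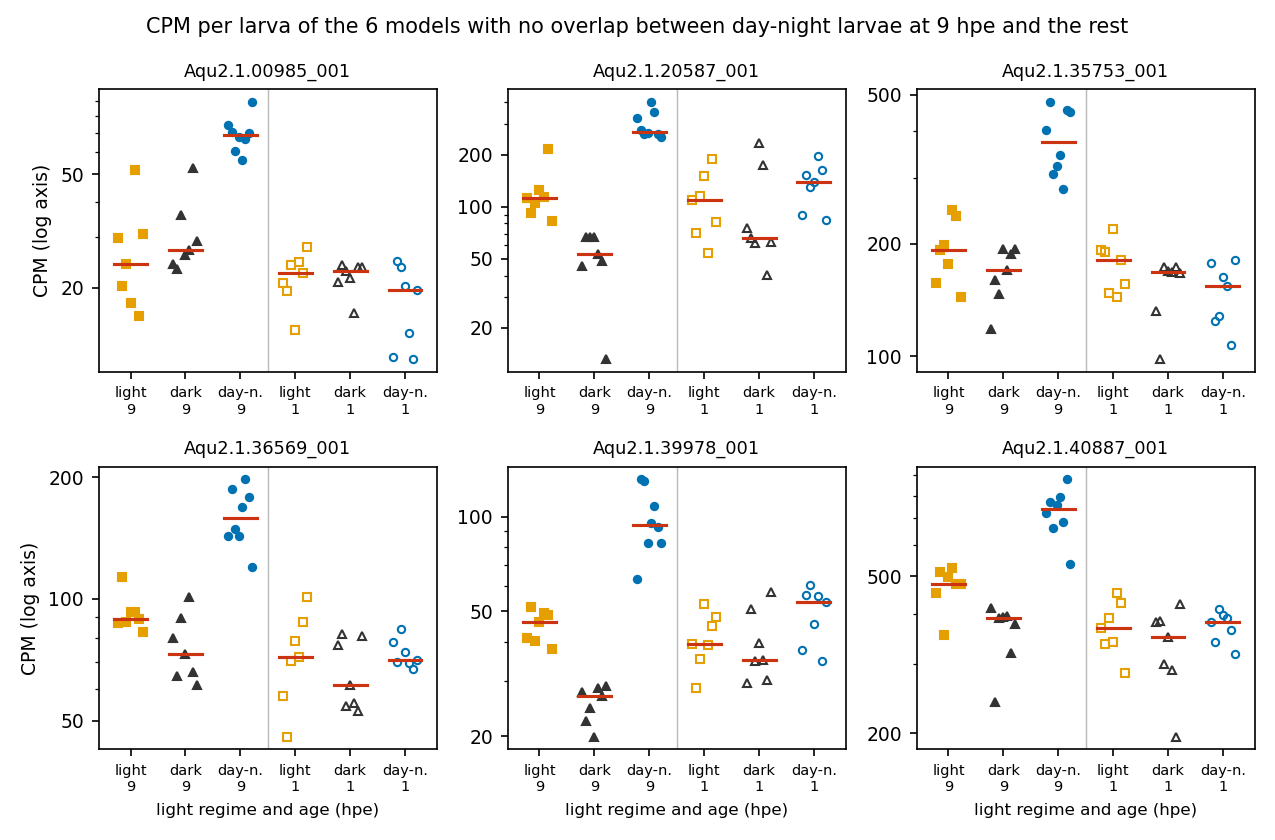
CPM per larva on a log axis for the 6 members in which the 8 day-night larvae at 9 hpe lay above all 35 other larvae. Squares are constant-light, triangles constant-dark and circles day-night larvae, filled at 9 hpe and open at 1 hpe, and the red bar is the group median. The filled circles stand above every other point in each panel, with little room to the next larva in most of them.

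Aqu2.1.35753_001 lay between 144 and 246 CPM in constant-light, between 118 and 193 CPM in constant-dark and between 280.2 and 479 CPM in day-night larvae at 9 hpe, with medians of 193, 170.1 and 373 CPM. At 1 hpe its medians were 181 CPM under constant light, 168 CPM under constant dark and 154 CPM under day-night light. The constant regimes and the young day-night larvae overlapped widely, and the older day-night larvae alone stood higher. The fitted log2 differences from day-night larvae at 9 hpe were -0.98 ± 0.14 for constant light and -1.27 ± 0.15 for constant dark (± SE).

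Aqu2.1.36569_001 had the same order of regimes at 9 hpe at a lower level. It lay between 83.1 and 114 CPM in constant-light, between 61.1 and 101 CPM in constant-dark and between 120 and 198 CPM in day-night larvae at 9 hpe. Its medians at 1 hpe were 71.7 CPM under constant light, 61.1 CPM under constant dark and 70.8 CPM under day-night light. The lowest day-night larva at 9 hpe, at 119.6 CPM, was close to the highest constant-light larva of that age, at 113.5 CPM.

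Aqu2.1.00985_001 was scarce, between 15.8 and 51.7 CPM in constant-light and between 23.1 and 52.5 CPM in constant-dark larvae at 9 hpe. It lay between 56.0 and 89.7 CPM in day-night larvae of that age. Its medians at 1 hpe were 22.6 CPM under constant light, 22.9 CPM under constant dark and 19.6 CPM under day-night light. Nearly the same values were found for Aqu2.1.21246_001, with medians of 24.7, 26.4 and 68.2 CPM in constant-light, constant-dark and day-night larvae at 9 hpe. After group means were removed, the log2 values of this pair went together over the 43 larvae with r = 0.89, the highest of 8646 member pairs. Near-identical copies can share 3′ reads, and the labels and files do not say whether these are such copies, so the pair may not be independent measurements.

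Aqu2.1.40887_001 belonged to the 5 members with the highest day-night median at 9 hpe. It lay between 354 and 523 CPM in constant-light, between 239.9 and 415 CPM in constant-dark and between 538 and 879 CPM in day-night larvae at 9 hpe. At 1 hpe the medians of the 3 regimes were close, at 370.0 CPM under constant light, 350.3 CPM under constant dark and 382 CPM under day-night light. The gap between regimes was therefore found at 9 hpe, with fitted log2 differences from day-night larvae of -0.62 ± 0.14 for constant light and -1.09 ± 0.14 for constant dark.

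The most abundant member, Aqu2.1.31785_001, had medians of 570.0 CPM under constant light, 609.6 CPM under constant dark and 957 CPM under day-night light at 9 hpe, within ranges of 359 to 686, 477 to 971 and 667 to 1218 CPM. At 1 hpe its medians were 494 CPM under constant light, 604 CPM under constant dark and 482 CPM under day-night light. The day-night larvae at 9 hpe overlapped those of both constant regimes, in contrast to Aqu2.1.40887_001.

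Aqu2.1.36118_001 lay between 231 and 525 CPM in constant-light, between 217 and 397 CPM in constant-dark and between 519 and 1039 CPM in day-night larvae at 9 hpe. A single constant-light larva reached into the day-night range. At 1 hpe its medians were 321 CPM under constant light, 306 CPM under constant dark and 358 CPM under day-night light. The day-night larvae were thus not lower at the younger age.

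Aqu2.1.31193_001 had medians of 429 CPM under constant light, 221 CPM under constant dark and 736 CPM under day-night light at 9 hpe. It ranged from 252 to 719.8 CPM in constant-light, from 183 to 469 CPM in constant-dark and from 558 to 1007 CPM in day-night larvae, so that the constant-dark and day-night ranges were apart and the constant-light range met both. The fifth abundant member, Aqu2.1.35544_001, had medians of 414 CPM under constant light, 294 CPM under constant dark and 580.3 CPM under day-night light at 9 hpe. Its day-night range ran from 27.6 to 653 CPM because of a single low larva, and low larvae occurred in 4 of the other groups too, at 9 hpe with 58.7 CPM under constant light and 66.1 CPM under constant dark, and at 1 hpe with 19.4 CPM under constant dark and 46.4 CPM under day-night light.

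The rule sets the same bound on constant light and on constant dark and fixes no direction between them. The medians of both entered it all the same, so the values given for this comparison are a description too, without p-values for single members. At 9 hpe, 4 members were called and all were higher in constant-light than in constant-dark larvae, against a background of 0.818% in either direction. The share of all tested models called higher in constant light alone is not given here. The median fitted log2 difference was 0.06 over the members and -0.01 over all tested models, with 76 members higher and 56 lower in constant light. At 1 hpe 0 members were called by edgeR and 0 by DESeq2, with 6 at an unadjusted p under 0.05 and a background of 0.148%. The fitted age change was called different between those regimes in 1 member, against a background of 1.04%.

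The clearest was Aqu2.1.39978_001, which lay between 38 and 51.5 CPM in constant-light and between 19.9 and 29 CPM in constant-dark larvae at 9 hpe. The medians were 46.3 and 26.7 CPM. The groups did not overlap, and the log2 difference was 0.89 ± 0.17 (SE, 7 larvae each). At 1 hpe the medians were 39.4 CPM under constant light and 35 CPM under constant dark, with a log2 difference of -0.01 ± 0.17. Day-night larvae at 9 hpe were above both, between 63.1 and 131 CPM with a median of 94.1 CPM.

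Aqu2.1.20587_001 lay between 83.1 and 214 CPM in constant-light and between 13.2 and 67.0 CPM in constant-dark larvae at 9 hpe, again without overlap. The log2 difference was 1.30 ± 0.33. Day-night larvae of that age lay between 253 and 403 CPM. At 1 hpe the medians were 109.8 CPM under constant light, 66.0 CPM under constant dark and 139 CPM under day-night light, and the groups overlapped.

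Aqu2.1.37524_001 lay between 161 and 313 CPM in constant-light and between 116 and 184 CPM in constant-dark larvae at 9 hpe, and the groups overlapped. The log2 difference was 0.68 ± 0.16. At 1 hpe the order of the medians was the reverse, at 171 CPM under constant light and 209 CPM under constant dark, with a log2 difference of -0.39 ± 0.16 that was not called. The fitted age change in constant-light less that in constant-dark larvae was 1.07 ± 0.23 on the log2 scale, from age changes that the rule had capped. No other member was called for this difference.

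Aqu2.1.37962_001 lay between 144 and 355 CPM in constant-light and between 139 and 216 CPM in constant-dark larvae at 9 hpe, with medians of 297 and 169 CPM. The ranges overlapped, and the log2 difference was 0.69 ± 0.18. In all 4 members the median at 9 hpe was highest in day-night, lower in constant-light and lowest in constant-dark larvae.

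These calls were not equally firm. The call of Aqu2.1.39978_001 held with any 1 of the 43 larvae left out, that of Aqu2.1.37524_001 in 38 of 43, that of Aqu2.1.20587_001 in 31 and that of Aqu2.1.37962_001 in 28, and the number of members called ran from 1 to 4. Aqu2.1.37524_001 was no longer called at 9 hpe without constant-light larva 2, 3 or 7 or constant-dark larva 2 or 4 of that age. Aqu2.1.20587_001 was not called without constant-light larva 1, 2, 3, 4, 6 or 7, constant-dark larva 2, 4, 5, 6 or 7 or day-night larva 3, and Aqu2.1.37962_001 without constant-light larva 1, 2, 3, 5 or 6, constant-dark larva 1, 2, 3, 4, 6 or 7 or day-night larva 3, 7 or 8, all at 9 hpe, nor without constant-dark larva 3 at 1 hpe. Without the 8 larvae that stood apart, which leaves 3 constant-light larvae at 9 hpe, 0 of the 132 members were called, with 17 at an unadjusted p under 0.05 and a background of 0.225%. DESeq2 was not run without these larvae. The log2 differences were then 0.85 ± 0.22 in Aqu2.1.39978_001, 1.58 ± 0.39 in Aqu2.1.20587_001, 0.50 ± 0.19 in Aqu2.1.37524_001 and 0.70 ± 0.24 in Aqu2.1.37962_001, and the difference of the age change in Aqu2.1.37524_001 was 1.05 ± 0.26, which was not called.

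The 10 members with the largest gap between the day-night age change and the higher of the constant ones were of a different kind. The best separated of them was Aqu2.1.35939_001, with a day-night age change of 3.01. It lay between 1.65 and 57.4 CPM in constant-light, between 33.9 and 107 CPM in constant-dark and between 78.7 and 307 CPM in day-night larvae at 9 hpe, with medians of 9.77, 48.4 and 168 CPM. At 1 hpe its medians were 21.7 CPM under constant light, 47.6 CPM under constant dark and 20.01 CPM under day-night light. Every day-night larva at 9 hpe was above every constant-light larva, while the constant-dark range met the day-night range.

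Aqu2.1.34444_001 had the largest day-night age change, 3.31, with a low median at 1 hpe. In day-night larvae at 1 hpe 4 larvae lay between 20.8 and 29.3 CPM and the other 3 between 210.0 and 670.5 CPM. At 9 hpe it ranged from 95.7 to 647 CPM in constant-light, from 16.1 to 775 CPM in constant-dark and from 27.3 to 725 CPM in day-night larvae, with medians of 458, 177 and 299 CPM. All groups overlapped, and the fitted day-night difference of 9 against 1 hpe, which rests on means, was 0.16 ± 0.67 on the log2 scale.

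Such a split of a group into high and low larvae recurred. Aqu2.1.14368_001 had 4 day-night larvae at 9 hpe between 0.779 and 6.99 CPM and 4 between 51.6 and 86.2 CPM. Its constant-light larvae at 9 hpe ranged from 1.63 to 61.7 CPM and its constant-dark larvae from 5.73 to 55.9 CPM. Its median therefore fell between the high and low larvae, and its day-night age change of 1.70 turned to -0.22 when any of these 4 high larvae was left out, the lowest such value of the named members.

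At 9 hpe Aqu2.1.09134_001 ranged from 0.330 to 22.3 CPM in constant-light larvae. It ranged from 0.865 to 47.1 CPM in constant-dark and from 0.952 to 58.9 CPM in day-night larvae of that age. At 9 hpe Aqu2.1.20130_001 ranged from 1.9 to 18.3 CPM in constant-light larvae. It ranged from 1.13 to 48.8 CPM in constant-dark and from 1.31 to 73.3 CPM in day-night larvae of that age. In both members larvae of the same group lay far apart, and the regimes overlapped throughout.

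**Figure D4:**
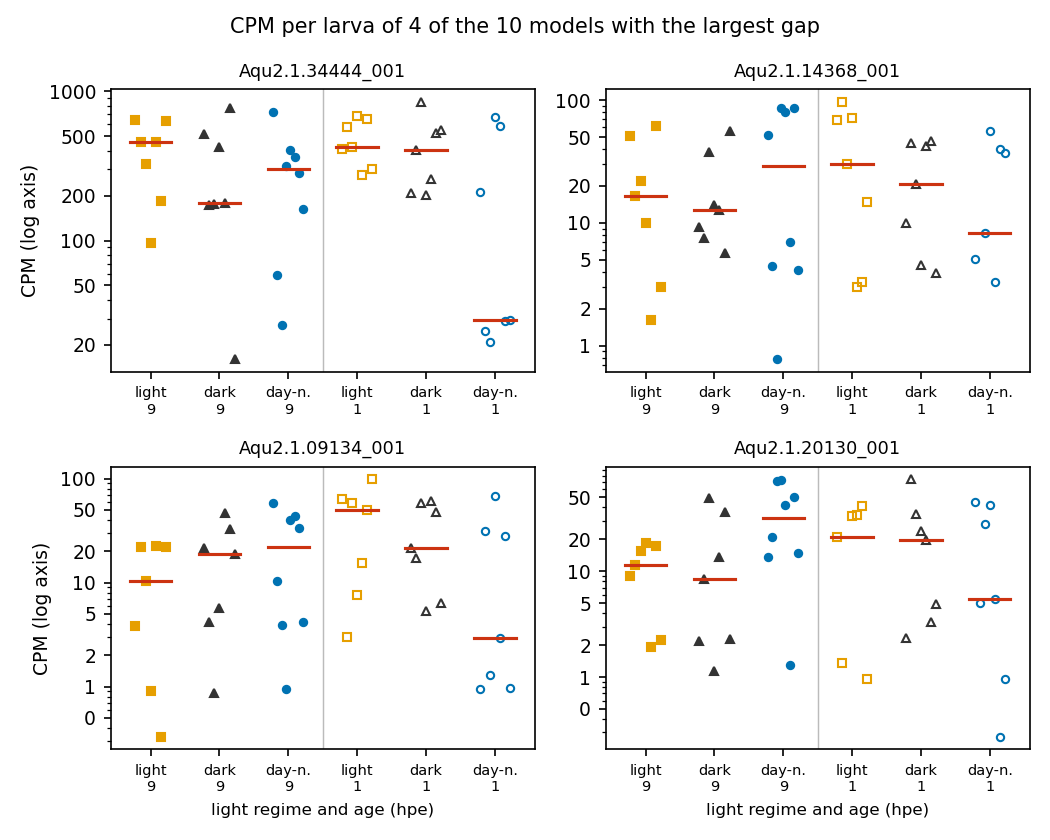
CPM per larva on a log axis for 4 of the 10 members with the largest gap. Symbols and red median bars are as in the plot of the 6 separated members, and 1 constant-light larva at 1 hpe in Aqu2.1.20130_001 and 1 day-night larva at 1 hpe in Aqu2.1.14368_001, both at 0 CPM, are not drawn. Larvae of the same group lie far apart, and the medians move with the number of high and low larvae in a group.

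Aqu2.1.28293_001 ranged from 1.36 to 183 CPM in constant-light, from 0.842 to 34.8 CPM in constant-dark and from 5.29 to 319.9 CPM in day-night larvae at 9 hpe, with medians of 3.96, 4.51 and 46.6 CPM. Its medians at 1 hpe were between 4.23 and 5.80 CPM in all regimes, so the gap lay at 9 hpe. Aqu2.1.04085_001 had the larger part of its gap at 9 hpe, with medians of 20.6 CPM under constant light, 25.9 CPM under constant dark and 93.1 CPM under day-night light. Its day-night range at that age was 12.9 to 172 CPM. At 1 hpe its medians were 39.4 CPM under constant light, 35.3 CPM under constant dark and 22.1 CPM under day-night light. Aqu2.1.06893_001 had medians of 36 CPM under constant light, 23.2 CPM under constant dark and 54.0 CPM under day-night light at 9 hpe, and of 43.6, 29.6 and 10.8 CPM in constant-light, constant-dark and day-night larvae at 1 hpe.

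The remaining members among these 10 were lower. Aqu2.1.02246_001 had medians of 5.18 CPM under constant light, 7.64 CPM under constant dark and 20.9 CPM under day-night light at 9 hpe. Aqu2.1.05739_001 passed the level cut through its constant-light median of 22.2 CPM at 1 hpe. Its medians at 9 hpe were 4.62 CPM under constant light, 4.24 CPM under constant dark and 13.4 CPM under day-night light, and its fitted day-night difference of 9 against 1 hpe was 0.03 ± 0.67 on the log2 scale.

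The members varied more between larvae of a group than other models did, a comparison that was not tested. The SD of log2(CPM + 1) around the group means had a median of 0.61 over the 132 members and of 0.39 over the other models that met the level and detection cuts, and it ran from 0.24 to 2.27. It was 0.92 over the models that met the cuts with constant light as the rising regime and 0.78 over those with constant dark. Of the 46 members with an SD below 0.5, 39 were called with age in day-night larvae, against 17 of the 50 with an SD from 0.5 to 1 and 4 of the 36 with an SD of at least 1. The last had the largest day-night age changes, with a median of 1.43, against 0.96 in members with an SD below 0.5. These counts come from contrasts the rule used and describe how the members differ among themselves. The test weighs a difference against the spread between larvae, so fewer calls at a larger SD follow from the test. The share of all tested models called in each SD class was not computed.

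Apart from the group means, the members showed little common variation over the larvae. The median r of the 8646 member pairs was 0.016 and that of pairs of other models was 0.019. Pairs of other models reached an r of at least 0.6 in 0.134% of cases and member pairs in 0.035%, that is in 3 pairs. These were Aqu2.1.00985_001 with Aqu2.1.21246_001, Aqu2.1.14368_001 with Aqu2.1.15362_001 (r = 0.79), and Aqu2.1.12843_001 with Aqu2.1.35939_001 (r = 0.64), named after their values were seen. The points share libraries and their depth, and no test was made.

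In each larva the median over the 132 members of log2(CPM + 1) minus the member's own mean gave a summed view. It lay between -0.09 and 0.10 in constant-light, between -0.20 and 0.05 in constant-dark and between 0.44 and 0.75 in day-night larvae at 9 hpe. At 1 hpe it lay between -0.16 and 0.05 in constant-light, between -0.21 and 0.03 in constant-dark and between -0.58 and -0.25 in day-night larvae. No day-night larva overlapped a larva of another regime at either age, a separation that the choice of the members fixes. Day-night larva 5 at 9 hpe had the lowest value of its group and was the lowest of the 8 in 36 members, against 8 to 22 members for the other larvae.

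**Figure D5:**
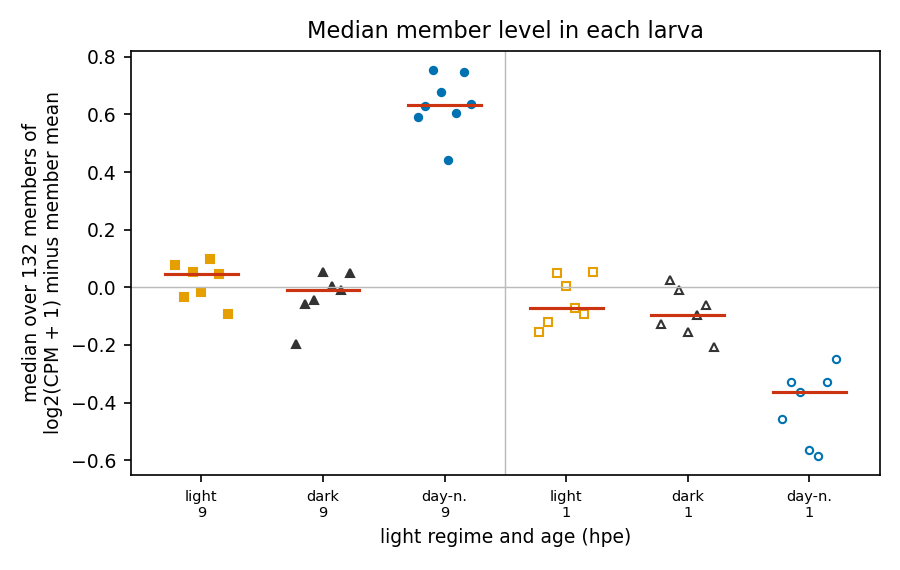
Median over the 132 members of log2(CPM + 1) minus each member's mean, for each larva by regime and age. Symbols are squares for constant light, triangles for constant dark and circles for day-night, filled at 9 hpe and open at 1 hpe, with the group median as a red bar. Day-night larvae lie between 0.44 and 0.75 at 9 hpe and between -0.58 and -0.25 at 1 hpe, and all other larvae between -0.21 and 0.10.

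Membership itself depended on scaling, on the use of medians and on single larvae. Of the 132 members, 75 were kept with TMM-scaled CPM, 69 with median-of-ratios scaling and 56 with group means in place of medians, when 126, 122 and 96 models met the rule. With each of the 43 larvae left out in turn, 108 to 145 models met the rule and 90 to 129 of the 132 members were kept. The fewest were kept without day-night larva 5 at 1 hpe (90), without larva 4 (100) and without larva 1 (103) of that group. In all, 45 members met the rule in each of the 43 cases. Of these, 29 were called with age in day-night larvae, against 60 of all 132 members. Over all tested models 9.94% were called higher. The rule used this contrast, so these counts are a description. Without the 8 larvae that stood apart, 134 models met the rule, 89 of them members.

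The mean log2 CPM in each of the 6 groups was compared with the mean member profile in 7501 models outside the set. Those that followed it most closely were Aqu2.1.37746_001 (r = 0.99), Aqu2.1.32894_001 (r = 0.98) and Aqu2.1.40727_001 (r = 0.97). Aqu2.1.37746_001 had medians of 66.2 CPM under constant light, 73.0 CPM under constant dark and 104 CPM under day-night light at 9 hpe, and an age change of 0.74 under day-night light, just below the cut. In Aqu2.1.40727_001 the shape was alike and the size small, with a day-night age change of 0.11.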

How the data were processed

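Single-larva RNA was extracted with TRIzol and sequenced by CEL-Seq2, a barcoded method that reads the 3′ ends of poly(A) transcripts, per the labels' protocols. The authors deposited raw counts per transcript model and larva. Features of spike-in RNA and of bacteria were left out, per the file name. For the aligner, counting tool, genome build and annotation, no name was given in the sources used here. A second table of normalized values was not used. Groups came from the sample titles. The larvae are separate animals, but no parent or batch is given, so p-values reflect how these larvae varied.

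Members, lists and tests were chosen with earlier results of these data known. CPM used column totals. Models were filtered with filterByExpr (minimum count 10), scaled with TMM and fitted with edgeR 4.0.16 (R 4.3.3) with 1 mean per group (6 groups), in 12 comparisons, with standard errors from the fold change and F. The script was checked on simulated counts. Alternatives used DESeq2 1.42.0, limma 3.58.1 (voom), other scaling, no filter, a replicate block, only the groups compared, and each larva left out. Named members were the 10 with the largest gap, those called between constant light and constant dark, the 5 highest in day-night larvae at 9 hpe, those nearest to a cut and the 3 models most like the mean profile. Others are named as chosen after their values were seen. Gene lists for light sensing and other functions were not analysed here, because no identifier could be matched to a gene name.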

Additional observations from a re-analysis of the deposited data

Results flagged for a closer look

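Of 114 groups of larvae examined in 19 named members, 14 held a larva far from the others of its group. The nominal rate of this flag was about 1 in 20. That rate need not hold for members chosen on these same values, so no excess is read from the count. A high larva was found in constant light at 9 hpe in Aqu2.1.02246_001 (larva 7, 25.9 CPM), Aqu2.1.04085_001 (larva 7, 137 CPM), Aqu2.1.20587_001 (larva 6, 214 CPM), Aqu2.1.28293_001 (larva 3, 183 CPM) and Aqu2.1.35939_001 (larva 5, 57.4 CPM). A low larva was found in the same group in Aqu2.1.31785_001 (larva 4, 359 CPM) and Aqu2.1.40887_001 (larva 3, 354 CPM). In constant dark at 9 hpe a larva was high in Aqu2.1.05739_001 (larva 7, 25 CPM), Aqu2.1.06893_001 (larva 5, 92.9 CPM) and Aqu2.1.28293_001 (larva 5, 34.8 CPM), and low in Aqu2.1.20587_001 (larva 7, 13.2 CPM) and Aqu2.1.36118_001 (larva 3, 217 CPM). In day-night larvae, larva 4 at 9 hpe was low in Aqu2.1.35544_001 (27.6 CPM), and larva 1 at 1 hpe was high in Aqu2.1.04085_001 (116 CPM).

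The fitted age change of Aqu2.1.37524_001 in constant light less that in constant dark was 1.07 on the log2 scale and was called by edgeR, from age changes that the rule had used. The age change of 20 members in constant light and of 22 in constant dark was called lower than under day-night light, again from contrasts the rule had used.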

How the results depend on the processing

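In the 12 comparisons the number of members called stayed within 1.5 times its value under the alternatives, apart from these. Between constant light and constant dark at 9 hpe (4 members) it was 7 with DESeq2, 2 with limma voom, 1 without the filter, 2 with the replicate block, 1 with only the groups compared and 0 without the 8 larvae apart, the last chosen after seeing the data. For how far their age changes differ (1) it was 3 with DESeq2, 2 with only the groups compared and 0 without those 8 larvae. Constant light against day-night at 1 hpe (2) gave other counts: 5 with DESeq2, 1 with median-of-ratios scaling and 0 with voom, without the filter, with the block and with only the groups compared. For the age change in constant light less that in day-night (20) it was 7 without the 8 larvae. For age in constant dark (7) it was 4 without them, and for age in constant light (0) it was 1 with DESeq2, with only the groups compared and without them. The cause was not tested. Over all tested models, constant light against constant dark at 9 hpe gave 116 calls, 305 with DESeq2 and 28 with only the groups compared. With 1 larva left out, these 6 counts ran from 1 to 4, from 1 to 2 (2 without constant-light larva 4, 6 or 7, constant-dark larva 1 or day-night larva 6 at 1 hpe, or constant-dark larva 1 or day-night larva 1 or 2 at 9 hpe), from 0 to 2, from 17 to 23, from 6 to 9 and from 0 to 1 (1 without constant-light larva 5 at 9 hpe). A fit to larvae 1 to 7 of each group, also chosen after seeing the data, moved no count past 1.5 times. For most of these alternatives the calls over all tested models are not given. There a change in the members called cannot be told from a change in calling over all models.

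The replicate numbers did not pair the larvae: 4 of 105 same-number pairs correlated over 0.1, and 4 of 43 larvae correlated best with their own number. The day-night age change of Aqu2.1.14368_001 ran from -0.22 to 2.49 with 1 larva left out. By the rule, 121 models were members with a pseudocount of 5 (100 of the 132 kept) and 130 with 0.5 (128), and 20 members met it under every setting. Depth limits the scarce members, 54 of which had a mean count below 100.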

Other observations

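Of the models with TCONS identifiers, which the rule leaves out, 66 met the cuts on level and detection and 1, TCONS_00001237, met all the others. Among 101 models that met the level and detection cuts and whose identifier number was next to that of a member, 20 (19.8%) had a day-night age change of at least 0.8, against 15.02% of all models that met those cuts. No test was made, and whether adjacent numbers are adjacent in the genome is not given in the sources used here.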
